A study of Mus musculus with 4 samples.

Results

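Smooth muscle contractile genes were followed across the cells of the amputated mouse digit tip. The group held 8 genes: Acta2, Tagln, Myh11, Cnn1, Des, Lmod1, Actg2 and Myl9. They were found by their symbols among the 33696 genes of the feature tables, and each symbol matched a single entry. Measurements were droplet single-cell UMI counts from the 3' ends of transcripts, so a level is given as CPM, the UMIs of a gene scaled by all UMIs of the cell class, and was not scaled by transcript length.

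Hindlimb digits came from female C57BL/6 mice of 6 to 8 weeks, of the C57BL/6J substrain by the study's methods. The SAR131675 chow library came from mice fed the VEGFR3 inhibitor SAR131675 at 30 mg per kg of chow, for 8 days by the deposited design text, and the control chow library from mice on the matched diet. The methods instead start the chow before amputation and continue it, and the sources differ on the day of collection, so the length of the diet is uncertain. The LNR library came from limbs whose inguinal and popliteal lymph nodes had been removed, and the sham library, labelled as untreated, from the opposite limbs. All 4 groups carried amputation of the distal P3, the last bone of the digit, for digits 2 and 4, while digits 2 to 4 were collected, so an unamputated digit was part of each pool. Digits of 10 mice were pooled per library, each condition was 1 library, and the labels gave each library its own batch number. The study's text describes the sham side as the opposite limb of the operated mice, so that pair may have shared its mice. Library, batch and treatment cannot be told apart in either pair, nor mouse and treatment in the chow pair. No test between conditions was possible, and all intervals below cover counting error only.

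The libraries held 21669 to 38464 barcodes and 168507188 to 585284877 UMIs. Limits of 200 to 5500 genes, at most 30000 UMIs and at most 10% mitochondrial UMIs kept 19827 to 29076 cells. Median depth was 11316 and 10712 UMIs per cell in the SAR131675 and control chow libraries, against 5725 and 5851 in the LNR and sham libraries. Kept barcodes shared between libraries numbered 210 for the chow pair and 101 for the LNR pair, and 0 to 2 otherwise. Of those shared, between 2 and 6 per library were smooth muscle-like or pericyte-like.

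Contraction of smooth muscle rests on sliding of actin over myosin, switched on when calcium leads to phosphorylation of the myosin light chain. Acta2 and Actg2 encode the smooth muscle actins, Myh11 the smooth muscle myosin heavy chain and Myl9 its regulatory light chain. Tagln (transgelin) and Cnn1 (calponin) bind actin filaments, Lmod1 (leiomodin) nucleates them, and Des (desmin) forms intermediate filaments that link the contractile apparatus. In skin and bone these genes are best known from the wall of arteries and arterioles, from pericytes along small vessels, from myofibroblasts of wounds and from the contractile cells around sweat glands. Many of them are known targets of serum response factor, which binds the CArG box together with myocardin.

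The promoters shown here are those whose window, the 250 bases before the gene start, held a CArG box with at most 1 mismatch. The 50 bases after the start were not searched. The RefSeq promoter table (GRCm38.p6) had entries for 5 of the 8 genes, Acta2, Cnn1, Des, Lmod1 and Myl9. The motif reads the same on both strands, and its letters are in capitals with 10 bases on either side.
Acta2, chr19:34255438-34255467, minus strand, 84 bases before the start, 1 mismatch: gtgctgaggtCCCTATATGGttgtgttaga
Acta2, chr19:34255388-34255417, minus strand, 34 bases before the start, 1 mismatch: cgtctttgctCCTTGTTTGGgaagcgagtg
Lmod1, chr1:135324614-135324643, plus strand, 189 bases before the start, 1 mismatch: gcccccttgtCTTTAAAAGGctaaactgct
Lmod1, chr1:135324639-135324668, plus strand, 164 bases before the start, 1 mismatch: ctgctctgtaCTAAATTTGGtcacgcagcg
Myl9, chr2:156775293-156775322, plus strand, 161 bases before the start, 0 mismatches: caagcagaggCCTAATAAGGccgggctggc
Myl9, chr2:156775355-156775384, plus strand, 99 bases before the start, 1 mismatch: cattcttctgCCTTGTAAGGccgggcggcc
Acta2, Lmod1 and Myl9 thus held 2 matches each, and the windows of Cnn1 and Des held 0. With at most 1 mismatch the motif was present in 3 of 5 promoters, against 18.9% of all 27025 promoters of the same length. An exact match was present in Myl9 alone, against 1.40% of all promoters.

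Cells were clustered within each pair of libraries without the 8 genes, and classes were named from markers that did not include them. The naming rule was set after levels of Acta2 and Myh11 by cluster were seen, so the classes are not fully independent of the 8 genes. Smooth muscle-like cells numbered 269 (SAR131675 chow), 172 (control chow), 318 (LNR) and 251 (sham), and pericyte-like cells 282, 207, 253 and 215 in the same order. That order of libraries is kept in every run of 4 values below. In smooth muscle-like cells all 13 smooth muscle markers, among them the coactivator Myocd and the calcium pump regulator Pln, were over 10 CPM in each library. In pericyte-like cells all 10 pericyte markers, among them Rgs5 and the potassium channel gene Kcnj8, passed the same level. The classes were named from these same markers, so their presence is no independent support for the names. Skeletal muscle markers summed to at most 5.27 CPM in smooth muscle-like cells.

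Acta2, the actin of vascular smooth muscle, was the most abundant of the 8 transcripts in smooth muscle-like cells, at 14369 (95% Poisson interval 14196–14544), 17753 (17523–17985), 15348 (15109–15589) and 16301 (16015–16591) CPM. In pericyte-like cells it stood at 3853, 2958, 6084 and 6467 CPM. The level in smooth muscle-like cells was 3.73, 6.00, 2.52 and 2.52 times that in pericyte-like cells. Tagln followed the same order of classes, at 9624, 10890, 12047 and 12469 CPM in smooth muscle-like cells. Its pericyte-like levels were 2913, 1884, 5102 and 5088 CPM. For both genes the gap between the classes was widest in the control chow library and narrowest in the LNR pair. The chow pair also held a class of other mural-like (vessel wall) cells, 46 and 27 in number, with Acta2 at 9167 and 9094 CPM. The LNR pair had no class of that name, so pericyte-like cells may not be the same set of cells in both pairs. The pairs also differed in depth and in the Cell Ranger version of their matrix headers. The part of any of these was not tested.

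Myh11, the heavy chain whose presence is widely used to mark mature smooth muscle, reached 6014, 8042, 4102 and 4317 CPM in smooth muscle-like cells. Pericyte-like cells held 1752, 1722, 1072 and 1157 CPM. The ratio of the classes, 3.43 to 4.67, varied less between libraries than that of Acta2. Myl9, the regulatory light chain, stood at 3886, 4686, 6016 and 6027 CPM in smooth muscle-like cells. Pericyte-like cells held 1300, 1107, 2149 and 2139 CPM of it. Lmod1 showed the most even level, with 733, 802, 744 and 754 CPM in smooth muscle-like cells. In pericyte-like cells its level was 301, 267, 345 and 326 CPM.

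Des and Actg2 did not follow this order. Des stood at 146 (129–164), 130 (111–151), 181 (156–209) and 187 (158–221) CPM in smooth muscle-like cells. Pericyte-like cells held more, at 241 (220–265), 281 (253–311), 289 (250–332) and 274 (234–319) CPM. The ratio of smooth muscle-like to pericyte-like cells was 0.604 (0.517–0.703), 0.464 (0.384–0.558), 0.627 (0.511–0.770) and 0.682 (0.541–0.859), below 1 in all 4 libraries. Actg2, the actin best known from visceral smooth muscle, was at 106, 178, 176 and 181 CPM in smooth muscle-like cells. In pericyte-like cells it was at 111, 59.4, 230 and 231 CPM. Its ratio was 0.954 (0.781–1.17), 2.99 (2.31–3.91), 0.766 (0.616–0.953) and 0.782 (0.613–0.997), so that the control chow library went the other way from the LNR pair. The chow pair ratios rest on few cells, which held most Actg2 UMIs of the smooth muscle-like class, as given below. A cluster led by P2rx1, also described below, was rich in Actg2. It made up 8.92% of smooth muscle-like cells in the SAR131675 chow library and 20.3% in the control chow library. Cnn1 was higher in smooth muscle-like cells everywhere, at 392, 470, 322 and 423 CPM. Its pericyte-like level ranged from 25.6 (17.7–35.7) in the control chow library to 150 (123–182) in the LNR library.

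A difference of at least 2-fold in favour of smooth muscle-like cells was reached by 6, 7, 6 and 6 of the 8 genes, and 1 gene, Des in the control chow library, was at least 2-fold lower. Among all genes with at least 100 UMIs, 17.9%, 19.8%, 17.0% and 17.4% differed by at least 2-fold in either direction. The median log2 ratio of the 8 genes was 1.65, 2.15, 1.18 and 1.31, against -0.09, -0.10, 0.02 and -0.00 over all those genes. Acta2 and Actg2 share much of their coding sequence with each other and with the skeletal and cardiac actins Acta1 and Actc1, so molecules could be split between them. Acta1 stood at 0 to 2.64 and Actc1 at 2.92 to 17.5 CPM in smooth muscle-like cells.

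Among the 29 named classes of at least 20 cells in the chow pair and the 27 of the LNR pair, smooth muscle-like cells held the highest level of 6, 7, 6 and 6 of the 8 genes. Des was highest in pericyte-like cells in each library. Actg2 was highest there in 3 libraries, with an interval that overlapped that of smooth muscle-like cells. When the 8 genes were allowed among the variable genes for clustering, the count fell to 0 (LNR) and 3 (sham) and stayed within 1.5 times of the main count in the chow pair.

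**Figure D1:**
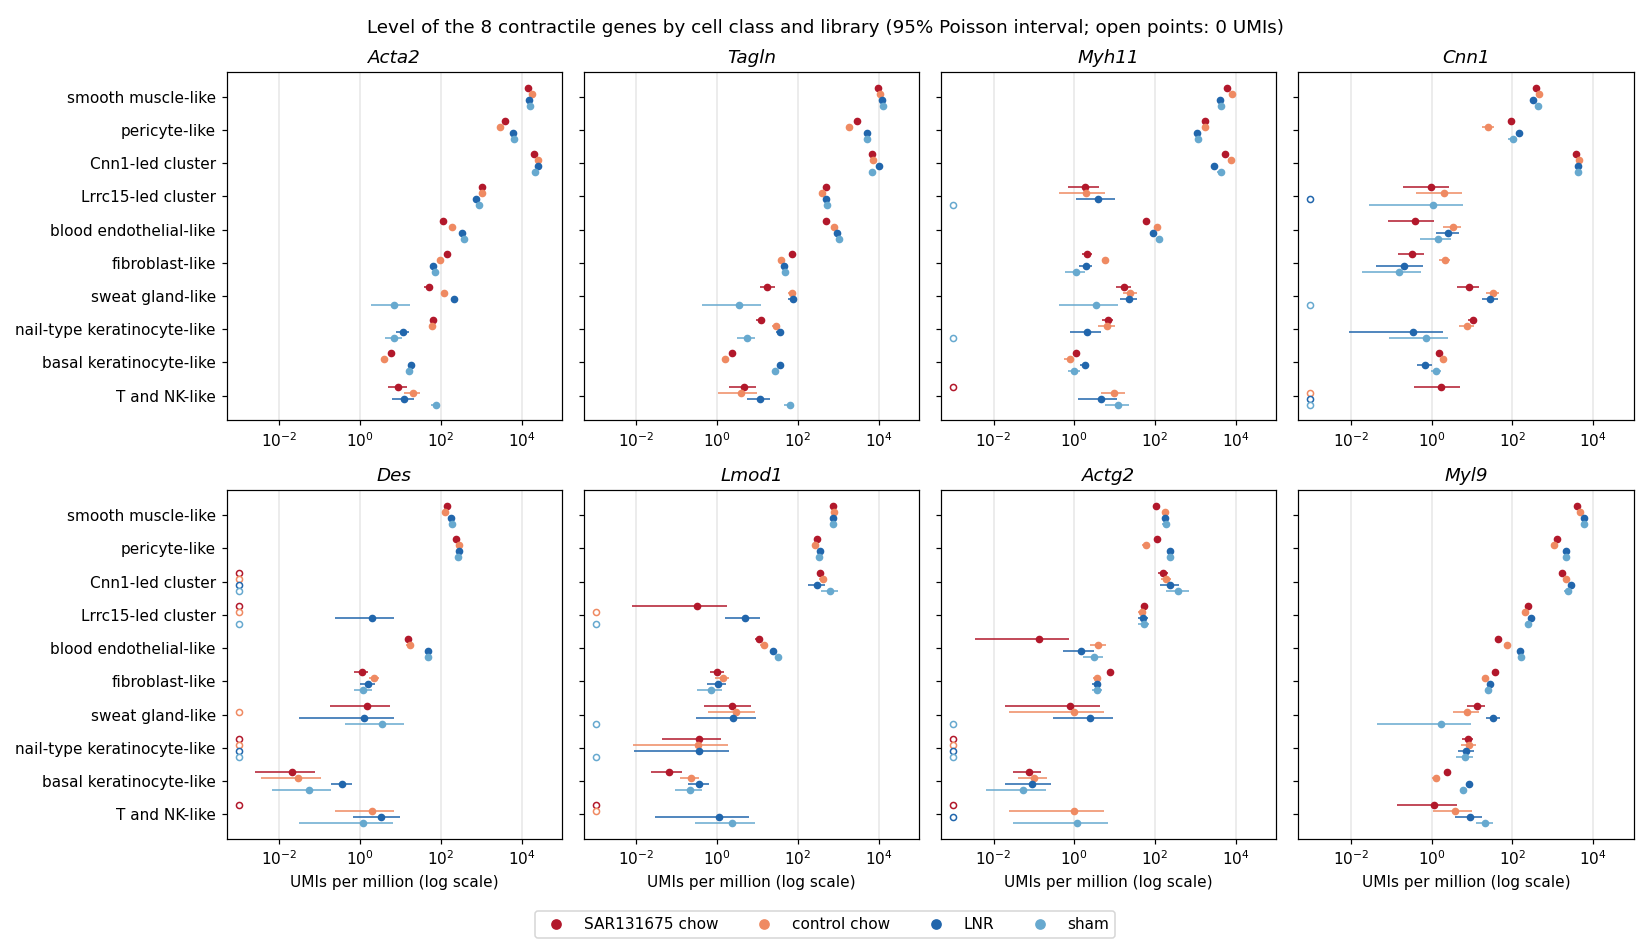
Each panel plots the level of 1 gene in CPM on a log axis for 8 named classes, the Cnn1-led cluster and the Lrrc15-led cluster (rows), with a point per library and its 95% Poisson interval. Open points at the left edge mark 0 UMIs. Smooth muscle-like, pericyte-like and Cnn1-led cells lie at the right in most panels, while Des is at 0 UMIs in the Cnn1-led cluster in all 4 libraries.

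Detection per cell was compared after thinning each cell to 2000 UMIs, which left out 39, 28, 45 and 44 of the smooth muscle-like cells. In the cells that remained, Acta2 was found in 99.1%, 100%, 100% and 100%, and Myh11 in 100%, 100%, 97.8% and 99.0%. Lmod1 was found in 66.1%, 79.9%, 70.7% and 75.8% of them. Actg2 was the least often detected, in 7.39%, 9.72%, 12.1% and 14.5%. Cnn1 and Des lay between, in 23.4% to 32.4% and 22.9% to 27.5% of cells. Without thinning, Actg2 was found in 11.2%, 17.4%, 13.5% and 15.1% of smooth muscle-like cells.

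Spinous keratinocyte-like cells, which should lack these transcripts, gave the background. After thinning, Acta2 was found in 0.732%, 0.473%, 0.836% and 0.496% of them. Actg2 was found in 0 of 3417, 3382, 1795 and 2017 cells, with exact 95% binomial upper limits of 0.108%, 0.109%, 0.205% and 0.183%. Their median depth before thinning was 18004, 18209, 10354 and 10440 UMIs, against 7590, 8099, 3064 and 2965 in smooth muscle-like cells. In basal keratinocyte-like cells Acta2 was found in 1.02%, 0.647%, 1.39% and 1.12%, but in the LNR pair that class included the Lgr5-expressing cluster described with the keratinocytes. At least 5 of the 8 genes were found together in 74.3% (68.2–79.9), 88.2% (81.8–93.0), 83.5% (78.6–87.7) and 87.4% (82.1–91.6) of thinned smooth muscle-like cells. The same held for 38.2%, 35.8%, 56.4% and 52.1% of pericyte-like cells. It held for 0 of the spinous keratinocyte-like cells in each library.

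Smooth muscle-like and pericyte-like cells together held 57.8%, 61.3%, 59.6% and 55.4% of all UMIs of the 8 genes in kept cells. With no upper limits on genes and UMIs per cell, the share was 38.0% in the SAR131675 chow library and 43.3% in the control chow library. Cells were clustered anew under that setting, and smooth muscle-like cells of the chow pair then numbered 194 and 117, against 269 and 172. The part of this change in the lower share was not tested. In the main clustering, other clusters of the pool that was clustered again as mural (vessel wall) cells held a further 12.9%, 9.74%, 15.5% and 16.5%. In the LNR pair these included an unnamed cluster led by Tchh, with the keratin gene Krt1 among its leading genes. Blood endothelial-like cells held 3.70%, 5.93%, 7.77% and 10.5%. Tagln and Des had the largest parts of their own UMIs there, at 8.18%, 14.5%, 13.3% and 17.4% for Tagln and 11.4%, 12.4%, 25.5% and 27.5% for Des. Blood endothelial-like cells with at least 10 Acta2 UMIs numbered 31, 29, 41 and 46, and 28, 24, 39 and 43 of them also held a Myh11 UMI.

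**Figure D2:**
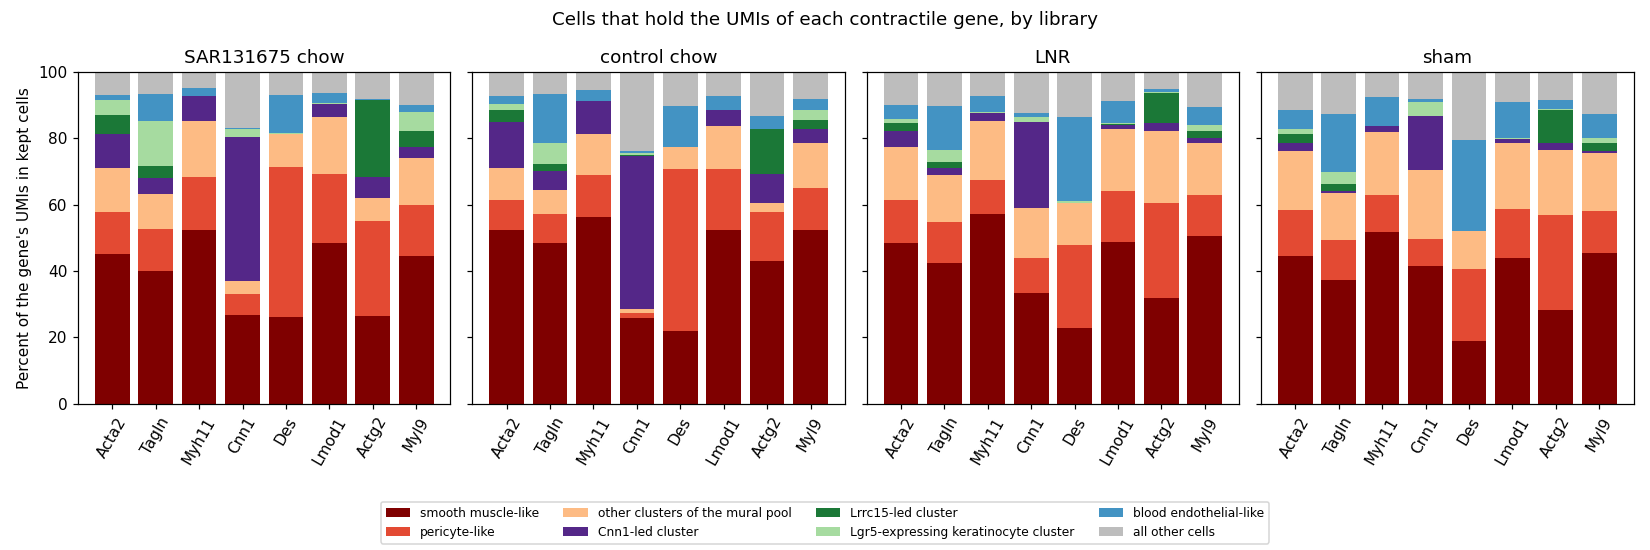
Stacked bars give the percent of each gene's UMIs in kept cells (vertical axis) that lay in each class or cluster (colours), for the 8 genes in the 4 libraries. Dark red and red mark smooth muscle-like and pericyte-like cells. The purple segment of Cnn1, the Cnn1-led cluster, takes 43.2% and 46.0% of its UMIs in the chow pair and 26.0% and 16.1% in the LNR pair, and the dark green segment of Actg2 is the Lrrc15-led cluster.

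A cluster led by Cnn1 itself stood outside the mural cells in both pairs. It held 30, 27, 13 and 5 cells and no name, and its next leading genes were Pcp4 and Sfrp1. Those few cells held 43.2% (41.4–45.1), 46.0% (44.0–48.1), 26.0% (23.3–28.9) and 16.1% (13.5–18.8) of all Cnn1 UMIs in kept cells. Cnn1 reached 3834, 4517, 4344 and 4263 CPM in it, against 322 to 470 in smooth muscle-like cells. Acta2 reached 20167, 25759, 24987 and 21935 CPM, above its level in smooth muscle-like cells of the same library. Tagln, at 6919, 7036, 10119 and 7014 CPM, was below its own level in them. A smooth muscle-like cluster led by P2rx1, described below, held more Acta2 than the Cnn1-led cluster in the SAR131675 chow and sham libraries. It held less Cnn1 in each library.

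Myh11 in the Cnn1-led cluster was at 5332, 7678, 2795 and 4160 CPM, and Myl9 at 1732, 2147, 2761 and 2407. Lmod1 stood at 353, 410, 303 and 619 and Actg2 at 158, 190, 236 and 378 CPM. Des had 0 UMIs in this cluster in each library, where 3 counts would be 9.90, 12.7, 50.5 and 103 CPM, so its absence is poorly bounded in the LNR pair. The cluster also held keratins, which some other cells carried too, at lower or at higher levels. Krt5 was at 1277, 1259, 1296 and 1857 CPM and Krt14 at 2168, 2417, 2711 and 2132. The epithelial transcription factor gene Trp63 was at 284, 317, 152 and 172 CPM. The 7 basal keratinocyte markers summed to 5688, 5510, 5321 and 6017 CPM, against 132 to 219 in smooth muscle-like and 154 to 208 in pericyte-like cells. In the Lrrc15-led fibroblast-like cluster, for comparison, Krt5 was at 161, 34.4, 211 and 458 CPM. In the Lgr5-expressing keratinocyte cluster Krt5 was above the Cnn1-led cluster in each library, at 1931, 2324, 3126 and 3474 CPM. The 6 markers listed for the myoepithelial cells of sweat glands, which include Mylk, Krt5 and Krt14, summed to 8658, 9863, 10052 and 9799 CPM, against 1983 to 2916 in smooth muscle-like cells. Of these, Oxtr was at 6.60 and 8.45 in the chow pair and 0 in the LNR pair. Krt5, Krt14, Krt17 and Trp63 of the list were also held by the Lgr5-expressing cluster, so the sum alone does not set these cells apart from keratinocytes. Krt17 was higher in that cluster, at 1591 to 2354 CPM against 520 to 1238. Mylk was far lower in it, at 8.22 to 11.4 CPM against 4299 to 5341. In the LNR pair the values of the Cnn1-led cluster rest on few molecules, with 9 and 5 UMIs for Trp63. The pericyte gene Rgs5 was at 23.1 CPM in the SAR131675 chow library and at 0 in the others. The muscarinic receptor gene Chrm3 was at 1376 and 1796 CPM in the chow pair and at 33.7 and 34.4 in the LNR pair. The LNR pair values rest on 2 and 1 UMIs. The part of the Cell Ranger version, which differed between the pairs, was not tested.

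The fibroblast-like cells included a cluster led by Lrrc15, Col11a1 and Tnn, of 250, 137, 147 and 129 cells. There Acta2 stood at 1034, 1029, 765 and 874 CPM and Tagln at 505, 391, 499 and 533. Myl9 was at 250, 207, 284 and 250 and Actg2 at 53.3, 47.7, 50.3 and 52.5 CPM. The other contractile genes were nearly absent: Myh11 was at 0 to 3.94, Cnn1 at 0 to 1.99, Des at 0 to 1.97 and Lmod1 at 0 to 4.93 CPM. The cluster held 23.0%, 13.6%, 9.03% and 9.92% of all Actg2 UMIs. All 8 fibroblast markers had UMIs in each library, with Col1a1 at 15086 CPM in the SAR131675 chow library. Over the whole fibroblast-like class, 61, 36, 26 and 20 cells held at least 10 Acta2 UMIs, and 2, 6, 2 and 0 of them held a Myh11 UMI.

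A keratin-positive cluster that expressed Lgr5, a stem cell gene of skin appendages, was chosen in each pair and held 304, 119, 635 and 722 cells. Lgr5 was its first leading gene in the LNR pair, while Slc7a8 and Slc1a3 led it in the chow pair. It came from different clustering runs, so its levels are not compared across pairs. In the chow pair Tagln was above Acta2 in it, at 1469 and 1214 against 648 and 460 CPM. Without thinning, 64.1% and 60.5% of its cells there held a Tagln UMI. In the LNR pair Tagln was at 300 and 247 and Acta2 at 130 and 108 CPM, and 8.98% and 7.06% of cells held Tagln. Of the 635 LNR cells, 542 held 0 UMIs of the 8 genes. Myh11 was at 1.24, 1.27, 6.15 and 1.86 CPM. Basal keratinocyte-like cells as a class held 6.02 and 3.96 CPM of Acta2 in the chow pair, where the cluster lay outside the class. In the LNR pair the class included the cluster and held 611 and 598 Acta2 UMIs, of which 463 and 406 were from the cluster.

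Nail-type keratinocyte-like cells, of which there were 420, 238, 326 and 344, held little of the 8 genes. Acta2 was at 65.2, 61.9, 11.5 and 6.83 CPM and Cnn1 at 10.7, 7.69, 0.350 and 0.719. Des and Actg2 had 0 UMIs in them in each library. In the SAR131675 chow library 10 of these cells held 82.8% of their Acta2 UMIs, and in the control chow library 6 cells held 87.6%. Sweat gland-like cells, 119, 107, 102 and 88 in number, held Acta2 at 50.6, 123, 217 and 6.87 CPM. In the SAR131675 chow library 2 cells held 68.2% of those UMIs, in the control chow library 2 cells held 92.9%, and in the LNR library 3 cells held 87.9%, so these values rest on a few cells. The highest Acta2 level of a named class outside mural cells in the control chow library, 548 CPM in monocyte-like cells, rested on 8 cells with 97.9% of the Acta2 UMIs. All 8 held Myh11 and at least 3 mural markers. Scrublet called 0 of them doublets, but it called 0.903% of cells in that library, against 4.67% to 7.61% in the others. In the SAR131675 chow library 5 of 5 Langerhans-like cells with at least 10 Acta2 UMIs were called, and in the LNR library 9 of 10 macrophage-like cells. Few such cells were called among blood endothelial-like and fibroblast-like cells of these libraries (SAR131675 chow, then LNR). They were 1 of 31 and 6 of 41 in blood endothelial-like and 2 of 61 and 1 of 26 in fibroblast-like cells.

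Smooth muscle-like cells were not uniform. Each pair held a cluster led by P2rx1 and Timp4, with 24, 35, 66 and 48 cells, which carried the highest Acta2 of the smooth muscle-like clusters, at 23523, 25665, 23210 and 23656 CPM. Cnn1 was at 1746, 1139, 828 and 1094 CPM there and Actg2 at 595, 523, 551 and 583. Des was at 72.6, 85.6, 114 and 82.6 CPM, the lowest of the smooth muscle-like clusters in each library. In the largest cluster of each pair, with Pln and Rasl11a among its leading genes, Cnn1 was at 140, 136, 138 and 215 CPM. Actg2 was at 13.7, 2.92, 34.1 and 47.4 CPM there. Cnn1 and Actg2 were thus higher in the P2rx1-led cluster than in the largest one in each library, while Des was lower. In the SAR131675 chow library 5 cells held 70.6% of the Actg2 UMIs of all smooth muscle-like cells.

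Among pericyte-like cells of the chow pair, a cluster led by Adarb2 and Lin7a, with Abcc9 and Kcnj8 among its leading genes, had 0 UMIs of Cnn1 and of Actg2 in 54 and 55 cells. Des was at 294 and 328 CPM there and Acta2 at 1152 and 747. A cluster led by Rgs16 and Il6, with the chemokine genes Cxcl1 and Ccl2 among its leading genes, was present in both pairs. Its Des level was 318, 373, 329 and 299 CPM. A cluster with Id4, Colec11 and Vtn among its leading genes held Actg2 at 253 and 178 CPM in the chow pair and 428 and 383 in the LNR pair. A small cluster of the LNR pair led by Saa3 and Col5a3, of 15 and 15 cells, was at 413 and 498. Des and Actg2 thus peaked in different pericyte-like clusters in the chow pair.

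**Figure D3:**
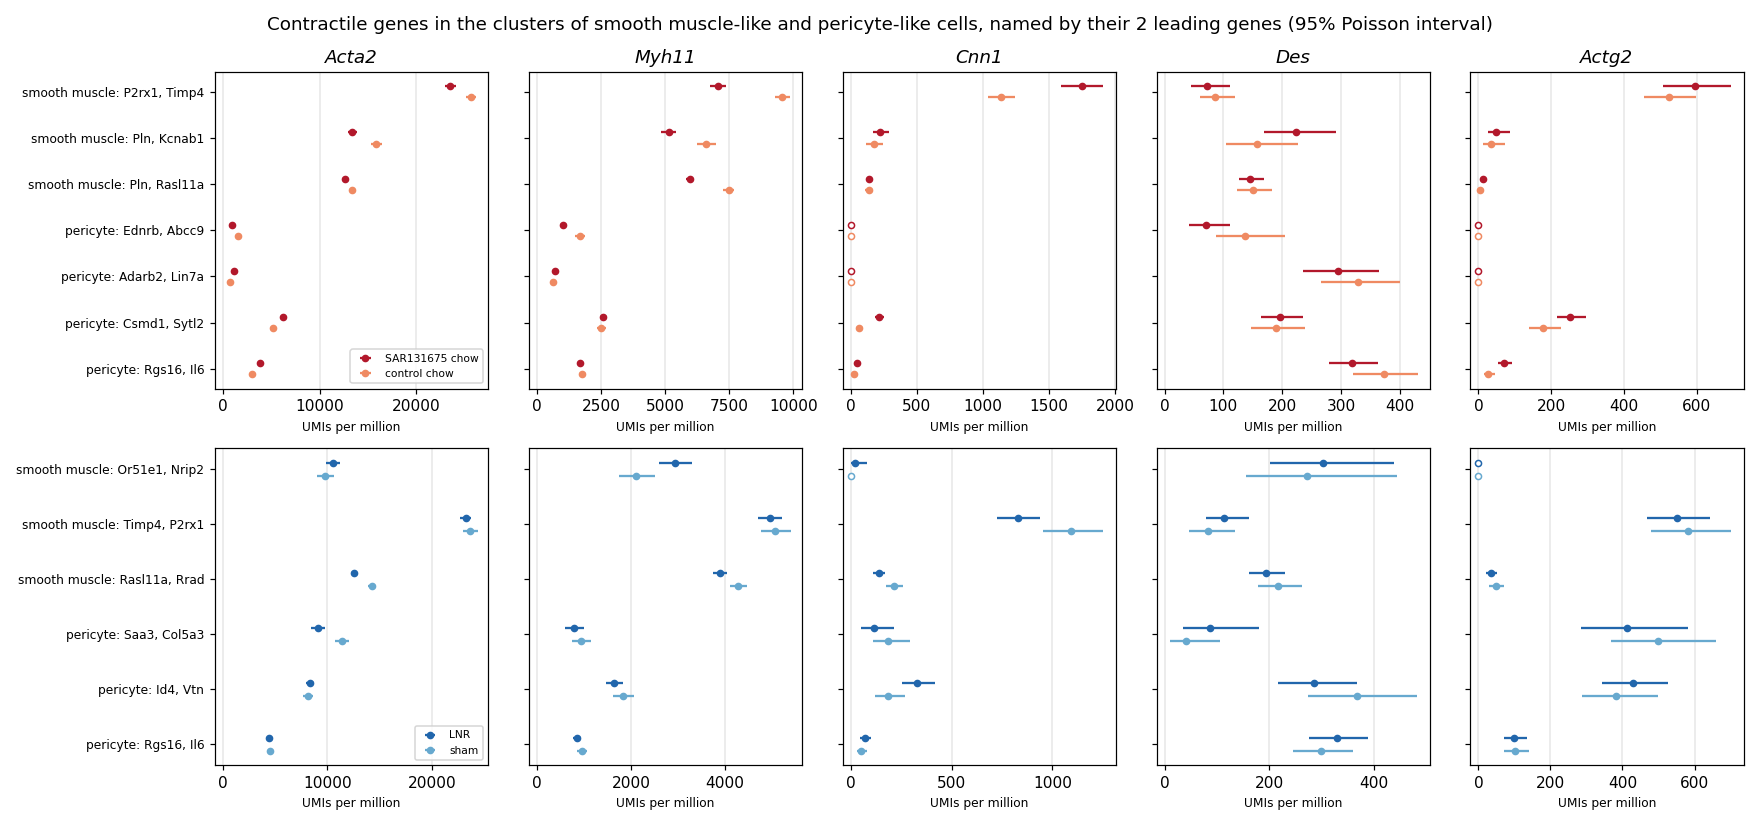
Levels of Acta2, Myh11, Cnn1, Des and Actg2 in CPM (linear horizontal axes) in each smooth muscle-like and pericyte-like cluster of the chow pair (upper row) and the LNR pair (lower row), with 95% Poisson intervals and open points for 0 UMIs. Clusters are named by their 2 leading genes. Cnn1 stands at 828 to 1746 in the P2rx1 and Timp4 cluster, while its Des is at 72.6 to 114.

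The first comparison between conditions asked whether contractile transcripts differed with VEGFR3 inhibition. In smooth muscle-like cells 7 of the 8 genes were lower in the SAR131675 chow library than in the control chow library, by small amounts. The log2 ratio was -0.31 (-0.33 to -0.28) for Acta2, -0.18 (-0.21 to -0.15) for Tagln, -0.42 (-0.46 to -0.38) for Myh11 and -0.27 (-0.32 to -0.22) for Myl9. It was -0.26 (-0.42 to -0.10) for Cnn1, -0.13 (-0.25 to -0.01) for Lmod1 and -0.75 (-1.03 to -0.46) for Actg2. The Actg2 ratio rests on few cells, since 5 cells held 70.6% of its UMIs in the SAR131675 chow library and 61.4% in the control chow library. Within the P2rx1-led cluster it was 0.19 (-0.11 to 0.48), and without that cluster, on few UMIs, 1.06. Des was the exception, at 0.16 (-0.12 to 0.45).

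Past 2-fold were 0 of the 8, where 0.609% of the 4929 genes with at least 100 UMIs were. The median of the 8 was -0.26, against -0.01 over all those genes. The P2rx1-led cluster, which is rich in Acta2, Cnn1 and Actg2, made up 8.92% (5.80–13.0) of smooth muscle-like cells in the SAR131675 chow library and 20.3% (14.6–27.1) in the control chow library. Without that cluster the median was 0.03. Within the 3 smooth muscle-like clusters it was -0.00, -0.09 and 0.04. Myh11 stayed lower within each, at -0.33 (-0.38 to -0.28), -0.36 (-0.48 to -0.25) and -0.44 (-0.52 to -0.36). Erythroid markers summed to 477 CPM in smooth muscle-like cells of the SAR131675 chow library and to 1569 in those of the control chow library, and their part in the result was not tested.

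In pericyte-like cells the same comparison went the other way, with 7 of 8 genes higher in the SAR131675 chow library and a median of 0.31, against -0.04 over all genes. Cnn1 was at 90.5 and 25.6 CPM (172 and 34 UMIs), a log2 ratio of 1.82 (1.29 to 2.40). It was the single gene of the 8 past 2-fold, where 0.611% of 5563 genes were. In each library 5 cells held over 50% of these UMIs, 54.7% and 55.9%. Without those cells the ratio was 1.86, but their shares were near equal, so leaving them out could hardly move it. With each library clustered on its own the ratio was 0.94. Actg2 was at 0.90 (0.52 to 1.29), Tagln at 0.63 (0.56 to 0.70) and Acta2 at 0.38 (0.33 to 0.44). Myl9 was at 0.23 (0.14 to 0.33), Lmod1 at 0.17 (-0.02 to 0.37) and Myh11 at 0.03 (-0.05 to 0.10). Des was lower, at -0.22 (-0.42 to -0.02). Within both of the largest pericyte-like clusters the median was 0.28. In the Adarb2-led cluster 5 genes were higher and 1 lower, and in a cluster of 37 and 19 cells 0 were higher and 6 lower. The Adarb2-led cluster made up 19.1% (14.7–24.2) of pericyte-like cells in the SAR131675 chow library and 26.6% (20.7–33.1) in the control chow library. Erythroid markers summed to 2421 and 361 CPM in pericyte-like cells of the chow pair, and their part was not tested.

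Lymph node removal was the other condition. In smooth muscle-like cells the levels of the LNR and sham libraries lay close together. The log2 ratio was -0.09 (-0.12 to -0.05) for Acta2, -0.05 (-0.09 to -0.01) for Tagln, -0.07 (-0.14 to -0.01) for Myh11 and -0.00 (-0.06 to 0.05) for Myl9. The largest difference was in Cnn1, at -0.40 (-0.62 to -0.17). Des was at -0.05 (-0.37 to 0.28), Lmod1 at -0.02 (-0.18 to 0.14) and Actg2 at -0.03 (-0.36 to 0.30). Past 2-fold were 0 of the 8, where 0.0782% of the 2558 genes were. The median was -0.05 and did not keep its sign under other definitions of the class, being 0.28 for cells gated on markers (533 and 502 cells) and 0.20 at a finer clustering.

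In pericyte-like cells the median was 0.01 between the LNR and sham libraries, and 0 of 8 genes passed 2-fold, where 0.150% of 1995 genes did. Cnn1 was at 0.52 (0.06 to 0.99) on 105 and 63 UMIs. The other 7 genes lay between -0.11 and 0.08. An unnamed cluster of the mural pool led by the cell cycle gene Cenpf, of 14 and 13 cells, held lower levels in the LNR library. Its 4 contractile genes with at least 100 UMIs were all (4 of 4) at least 2-fold lower there, where 4.94% of 506 genes passed 2-fold. The median of the 8, which takes in genes with fewer UMIs, was -1.76, with ratios from -5.74 to 1.48. How these UMIs were spread over the few cells was not examined. In another cluster of the mural pool all 8 genes were higher in the LNR library, with a median of 0.39 and 0 past 2-fold. In pericyte-like cells gating on markers, which took in 970 and 1042 cells, gave a median of 0.31. Over all kept cells, where the number of contractile cells also counts, the 8 genes were higher in the LNR library, with a median log2 ratio of 0.30, against 0.02 over all genes, and a range of 0.18 to 0.44. The same median for the chow pair was 0.09, against -0.01 over all genes.

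**Figure D4:**
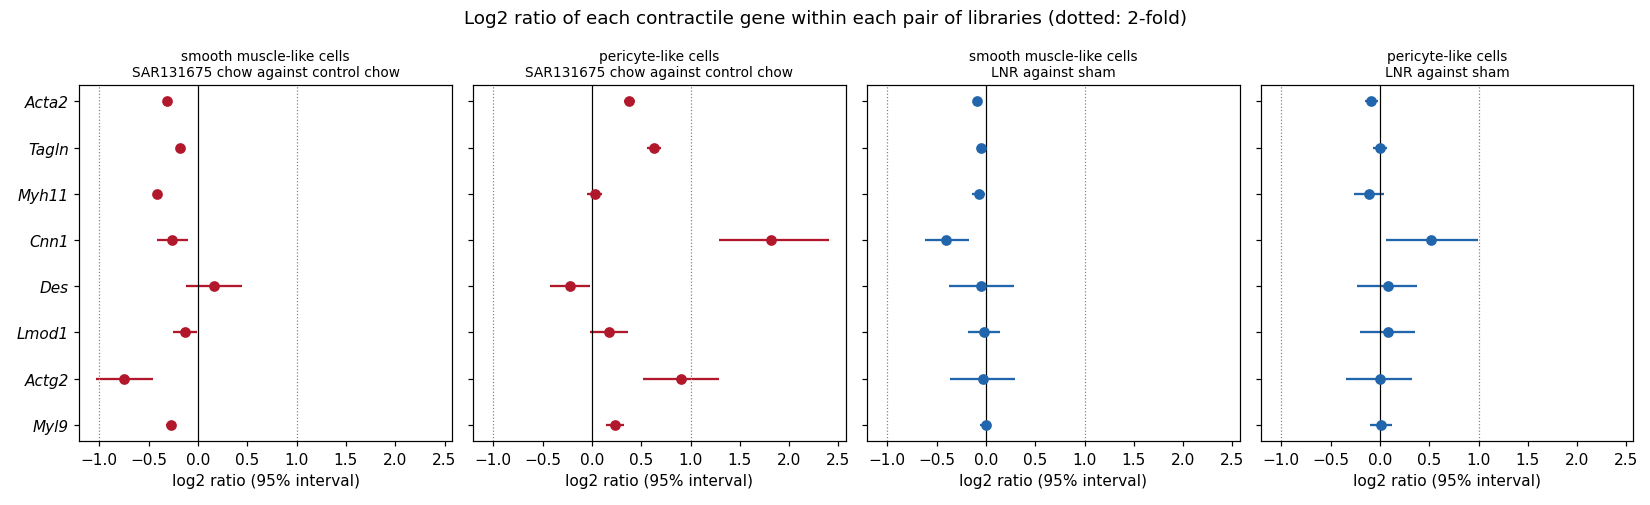
Log2 ratio (horizontal axis) of each gene between the libraries of a pair, with the exact 95% interval from the counts, in smooth muscle-like and pericyte-like cells. Dotted lines mark 2-fold. Points in smooth muscle-like cells lie between -0.75 and 0.16 for SAR131675 chow against control chow and between -0.40 and -0.00 for LNR against sham, and Cnn1 in pericyte-like cells at 1.82 is the single point past a dotted line.

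Other genes of the contractile machinery were read from lists, some of whose genes (Mylk, Synpo2, Ppp1r12b, Mustn1, Myocd, Pln, Casq2, Kcnmb1, Kcnj8 and Abcc9) also served as markers of the classes. Of the 15 actomyosin partners, such as the tropomyosin genes Tpm1 and Tpm2, 9, 9, 6 and 8 were at least 2-fold higher in smooth muscle-like than in pericyte-like cells and 0 were lower. Over all genes with at least 100 UMIs, 6.47%, 7.48%, 9.06% and 8.35% were that much higher and 11.4%, 12.4%, 7.93% and 9.08% that much lower. Without the 3 class markers in the list, 7, 7, 5 and 7 of 12 were higher. Tpm2 was at 2688, 3024, 5946 and 6357 CPM in smooth muscle-like cells, with log2 ratios of 2.24, 3.08, 1.97 and 1.91. Cald1 (caldesmon) differed little, at 0.24, 0.54, 0.12 and 0.31. Of the genes of dense bodies and adaptors 8, 10, 6 and 4 were at least 2-fold higher and 0 lower, of 15, 15, 15 and 14 with at least 100 UMIs. Without Mustn1, a class marker, 7, 9, 5 and 3 were higher. Crip1 of the same list, a LIM domain protein gene, had log2 ratios of 0.92, 1.51, 0.87 and 0.93.

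Of 8, 8, 5 and 5 regulators with at least 100 UMIs, 3, 3, 2 and 2 were at least 2-fold higher in smooth muscle-like cells and 2, 2, 0 and 1 were lower. Without Myocd, a class marker, 2, 2, 1 and 1 of 7, 7, 4 and 4 were higher. Myocd had a log2 ratio of 1.56, 1.89, 2.04 and 1.18 and Foxc1 of 1.91, 2.08, 1.24 and 1.44, both towards smooth muscle-like cells. Tead1, which pairs with YAP, was at -0.65, -1.04, -0.51 and -1.16. Of 5, 4, 3 and 3 receptors for constrictors 1, 1, 0 and 0 were higher and 2, 1, 1 and 1 lower, with the endothelin receptor gene Ednra at -0.77, -0.77, -0.59 and -0.68 and Ednrb at -2.42, -2.54, -1.94 and -2.32. Of 10, 10, 6 and 5 calcium and ion handling genes 6, 6, 3 and 3 were higher and 2 were lower in each library. Without the 5 class markers, 3, 3, 2 and 2 of 5, 5, 3 and 2 were higher and 0 lower. The pump gene Atp2a2 was at 1.06, 1.16, 1.35 and 1.01. The cytoplasmic actins and other relatives had a median of -0.33, -0.20, -0.50 and -0.45. Between conditions, 2 genes of these lists passed 2-fold, both in pericyte-like cells of the chow pair, where 0.611% of all genes did, and they are named because of those values. Ppp1r14a, an inhibitor of myosin phosphatase and 1 of 14 actomyosin partners tested there, was at 1.03. Adra1b, an adrenergic receptor gene and 1 of 5 receptors tested, was at -1.09.

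Likeness of pattern was measured over 112 profiles, 1 for each class of at least 20 cells in each library, as Pearson's r of log2(CPM + 10) among 12943 genes. Profiles of a library share its depth and free RNA, so r is given as a description. The genes nearest the mean of the 8 were Aoc3 (0.965), Rgs4 (0.956), Kcne4 (0.953), Kcnk3 (0.951) and Foxs1 (0.945). Among the 8, Acta2 was nearest Tagln (0.95), Tagln nearest Myl9 (0.951), Myh11 nearest Lmod1 (0.962) and Cnn1 nearest Actg2 (0.892). Lmod1 was nearest Aoc3 (0.988), an amine oxidase gene. Des was nearest Npy1r (0.969), a neuropeptide Y receptor gene. Likeness to the mean of the 8 was lowest for Actg2 (0.872) and Cnn1 (0.881), followed by Des (0.935).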

How the data were processed

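Raw UMI counts per gene and barcode were deposited by the authors for 4 libraries. They were made by the authors with Cell Ranger against GRCm39. The matrix headers give version 6.1.2 for the LNR pair and 8.0.1 for the chow pair, while the submitters' processing notes name 6.1.2. What this difference did to levels compared between the pairs was not tested. Here barcodes with 200 to 5500 genes, at most 30000 UMIs and at most 10% mitochondrial UMIs were kept. Counts were log-normalized with scanpy 1.11.5 and clustered within each pair from 2000 variable genes without the 8 genes, 30 components, 20 neighbours and Leiden resolution 1.5. Mural and sweat gland clusters were clustered again at 0.7. The authors' SCTransform and Harmony steps were not repeated. Scrublet calls (4.67%, 0.903%, 7.61% and 7.22% of cells) were kept in. UMIs were summed per class. Levels carry exact Poisson, shares exact binomial (Clopper-Pearson) and ratios exact conditional 95% intervals. The script was tested on simulated data.

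Genes and lists were chosen with earlier results of these data known. The rule for naming clusters (a score of at least 1, at least 3 markers in at least 5% of cells, a limit on depth) was set after cluster profiles and levels of Acta2 and Myh11 were seen, and an earlier form was dropped. Myoepithelial and cycling lists took no part in naming. The Cnn1-led, Lrrc15-led, P2rx1-led and Lgr5-expressing clusters were singled out after their levels were seen, as were the forms in which levels by class and detection are summarised and the limit for a value that moved. Other named genes are up to 4 per list of highest level in smooth muscle-like cells of the control chow library, those called between conditions (named after their values were seen), the 5 nearest the mean profile and the nearest of each gene. A call needs at least 100 UMIs in both libraries together and a 2-fold ratio. List counts without class markers and the choice of spinous cells as the background were added after values were seen. The promoter search with 1 mismatch was added after the exact search. Promoters come from RefSeq GRCm38.p6, another build than that of the counts. Alternatives covered cell limits, resolution, doublets, class definition, denominator, separate clustering, variable genes, thinning and the call rule.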

Additional observations from a re-analysis of the deposited data

How the results depend on the processing

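No paired analysis was possible because each condition is 1 library. With cells gated on at least 3 markers in place of clusters, the median log2 ratio for the chow pair was -0.16 in smooth muscle-like cells and 0.11 in pericyte-like cells. For the LNR pair it was 0.28 and 0.31. The gate took in 502 to 1383 smooth muscle-like and 918 to 1197 pericyte-like cells per library, against 172 to 318 and 207 to 282 by clusters, so it describes a larger population. In smooth muscle-like cells it was -0.49 for the chow pair with each library clustered on its own, 0.03 without the P2rx1-led cluster (chosen after seeing the data), and 0.20 for the LNR pair at resolution 2.5. The cause was not tested.

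The share of the 8 genes' UMIs in smooth muscle-like and pericyte-like cells (order SAR131675 chow, control chow, LNR, sham) was 84.2%, 87.3%, 81.2% and 82.7% under the marker gate and 38.0%, 43.3%, 58.8% and 53.9% with no upper limits on cells. In the SAR131675 chow library it was 58.1% at resolution 0.7, 60.6% without called doublets, 67.9% with each library clustered on its own and 59.1% with the 8 genes among the variable genes. In the control chow library clustered on its own it was 52.6%. In the LNR and sham libraries it was 54.8% and 50.1% at resolution 0.7, 69.3% and 65.1% at 2.5, 64.4% and 56.7% without called doublets, 60.1% and 55.8% clustered alone, and 43.2% and 42.4% with the 8 genes among the variable genes. Under that last setting smooth muscle-like cells held the highest level of 0 (LNR) and 3 (sham) of the 8 genes.

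Median detection of the 8 genes in smooth muscle-like cells, 80.7%, 89.6%, 84.2% and 87.4% at 2000 UMIs, was 68.3%, 72.8%, 71.0% and 70.2% at 1000 UMIs, and 88.7% (SAR131675 chow) and 88.5% (LNR) without thinning. At 1.5-fold, 1 of the 8 genes was called in smooth muscle-like and 3 in pericyte-like cells of the chow pair, where 225 of 4929 and 326 of 5563 genes were. Over all genes, calls at 2-fold were 30, 34, 2 and 3 (smooth muscle-like and pericyte-like cells of the chow pair, then of the LNR pair). These were out of 4929, 5563, 2558 and 1995 genes with at least 100 UMIs. Calls rose to 225, 326, 49 and 53 at 1.5-fold, and to 794, 858, 716 and 846 with a minimum of 10 UMIs. That minimum takes in more genes, whose number is not given here. Of the 72 ratios of single genes recomputed per class, 20, 9, 27 and 15 moved beyond their counting interval in the same order.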

Other observations

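Clusters of the mural pool that took neither class name also held the 8 genes, and they were chosen for mention after their levels were seen. In the LNR pair a cluster led by the cell cycle genes Cenpf and Prc1 held 14 and 13 cells, and Acta2 stood at 1835 CPM (LNR) and 5405 CPM (sham). Another, led by Tchh and Rasl11a with the keratin gene Krt1 among its leading genes, held 72 and 89 cells with Acta2 at 3984 and 3266 CPM. In the chow pair a cluster led by Rgs5 and Ednrb, of 46 and 27 cells, was at 9167 and 9094 CPM for Acta2, with Cnn1 at 40.3 and 21.9.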
